A study of Homo sapiens with 4 samples.

Results

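The let-7 microRNAs (miRNAs) encoded on autosomes were examined in small RNA sequencing of HEK293T cells, a line derived from human embryonic kidney. The 10 loci (MIRLET7A1, MIRLET7A2, MIRLET7A3, MIRLET7B, MIRLET7C, MIRLET7D, MIRLET7E, MIRLET7F1, MIRLET7G and MIRLET7I) were taken by name from 7062 small RNA features, of which 1869 were miRNA features. The cells depended on a transfected RPB1, the biggest component of RNA polymerase II (Pol II), whose C-terminal domain (CTD) had 52 heptad repeats. In 52X T4A the threonine at the fourth position of the repeats was alanine, and in 52X WT the repeats were wild type. Both groups received 1.5 µg of plasmid per well by transient transfection and then 2.5 µg/ml α-amanitin for 72 h, a mushroom toxin by which cells lose their own Pol II, so both were exposed to the drug and carried a transiently transfected enzyme. Each group had 2 libraries, described by the labels as biological replicates. No untransfected or untreated cells were among the samples used here, and the RPB1 substitution itself cannot be read from small RNA counts.

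A let-7 miRNA is cut from a hairpin in a primary transcript, first by the Microprocessor (Drosha with DGCR8) in the nucleus and then by Dicer in the cytoplasm. The mature strand guides Argonaute to mRNAs that pair with its seed, and the family is known for repressing growth-promoting genes such as HMGA2, MYC and the RAS genes in differentiated cells. LIN28 proteins bind let-7 precursors, often at a GGAG element near the 3′ arm, and block their processing. Precursors are divided into group I, which Dicer takes directly (MIRLET7A2, MIRLET7C and MIRLET7E), and group II, which first need a uridine added at the 3′ end (the other 7 loci).

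The 10 loci encode 8 distinct 5p mature miRNAs of 22 bases. All share 1 seed, shown in capitals (bases 2 to 8), so the members differ only outside it. The sequences are from RefSeq (GRCh38.p14) and are shown because their closeness decides which loci can be told apart by reads.
let-7a: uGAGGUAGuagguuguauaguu
let-7b: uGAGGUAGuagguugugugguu
let-7c: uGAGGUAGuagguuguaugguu
let-7d: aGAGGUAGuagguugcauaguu
let-7e: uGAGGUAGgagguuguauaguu
let-7f: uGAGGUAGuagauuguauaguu
let-7g: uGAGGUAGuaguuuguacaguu
let-7i: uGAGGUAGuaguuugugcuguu

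Counted from 1 at the 5′ end and with let-7a as the reference, let-7c carried A19G, let-7e carried U9G and let-7f carried G12A, a single difference each. The differences of let-7b were A17G and A19G, and those of let-7d were U1A and U16C. Of the remaining members, let-7g had G12U and U18C and let-7i had G12U, A17G, U18C and A19U. The seed was held by 14 of 2545 mature sequences in the RefSeq table, at 14 loci. Beside the 10 autosomal let-7 loci these were MIRLET7F2 and MIR98 on the X chromosome, MIR4458 with 1 count in all 4 libraries together and MIR4500 with 0.

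The hairpins differ more than the mature strands. Those of 2 let-7a loci and of MIRLET7E are shown with the 5p mature strand in capitals, because the first pair gives an identical mature miRNA from a group II and a group I precursor.
MIRLET7A1: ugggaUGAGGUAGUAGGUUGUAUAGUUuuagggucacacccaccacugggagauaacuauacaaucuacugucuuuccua
MIRLET7A2: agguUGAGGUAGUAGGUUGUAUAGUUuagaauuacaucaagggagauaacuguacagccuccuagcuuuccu
MIRLET7E: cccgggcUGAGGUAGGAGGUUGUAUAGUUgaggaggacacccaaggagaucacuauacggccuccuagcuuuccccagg

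The stretch between the annotated 5p and 3p strands was 23 bases in all 3 group I hairpins. In the group II hairpins it ran from 26 bases in MIRLET7A3 to 35 bases in MIRLET7G. The letters GGAG, searched on the RNA strand, lay between the arms in 8 of the 10 hairpins and were not found in those of MIRLET7A3 and MIRLET7B. As background, 678 of 1562 miRNA hairpins in the RefSeq table (43.4%) hold GGAG somewhere.

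The loci lie on 7 chromosomes. Positions are those of the deposited tables (hg38), and the host genes are from GENCODE v44lift37 by name. MIRLET7A1 (ENSG00000199165.3, chr9:94175957-94176036, plus strand), MIRLET7F1 (ENSG00000199072.3, chr9:94176347-94176433, plus) and MIRLET7D (ENSG00000199133.3, chr9:94178834-94178920, plus) follow each other at 310 and 2400 bases and overlap exons of the long noncoding RNA MIRLET7A1HG. MIRLET7A3 (ENSG00000283990.1, chr22:46112749-46112822, plus) and MIRLET7B (ENSG00000284520.1, chr22:46113686-46113768, plus) are 863 bases apart in exons of MIRLET7BHG. MIRLET7C (ENSG00000199030.2, chr21:16539828-16539911, plus) lies in an exon of MIR99AHG, and MIRLET7A2 (ENSG00000198975.2, chr11:122146522-122146593, minus) in an intron of MIR100HG. MIRLET7E (ENSG00000198972.3, chr19:51692786-51692864, plus) is in an intron of the protein-coding gene SPACA6 and opposite an exon of SPACA6-AS1. MIRLET7G (ENSG00000199150.3, chr3:52268278-52268361, minus) is in an intron of WDR82, and MIRLET7I (ENSG00000199179.3, chr12:62603686-62603769, plus) is in an intron of MIRLET7IHG and opposite an exon of LINC01465.

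The libraries held between 16180790 and 27370127 counts, and miRNA features took between 63.5% and 75.3% of them. The lowest miRNA share was that of 52X WT replicate 1. HEK293 cells are known to hold much miR-10a, and MIR10A, MIR196A1, MIR92A1 and MIR17 together gave between 106700 and 138700 CPM (counts relative to the total of the library, here without TMM factors) in every library.

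All 10 let-7 loci passed the filter on low counts, but their levels differed widely. Levels of the members are given as CPM with TMM factors. By mean CPM over the 4 libraries the order was MIRLET7A1 (4842), MIRLET7A3 (4830), MIRLET7A2 (4730), MIRLET7F1 (4061), MIRLET7G (1003), MIRLET7I (995), MIRLET7C (932), MIRLET7E (693), MIRLET7B (277) and MIRLET7D (7.52). These placed MIRLET7A1 at rank 27 and MIRLET7D at rank 281 among 621 tested miRNA features. Neighbours in the order kept it in all 4 libraries except MIRLET7G with MIRLET7I and MIRLET7I with MIRLET7C, each in 2 of 4 libraries. MIRLET7G and MIRLET7I changed places within both groups and did not differ beyond their spread. For MIRLET7C the split ran by group, since it lay above MIRLET7G and MIRLET7I in 52X T4A replicate 1 (1237 against 1082 and 1180 CPM) and replicate 2 (994 against 949 and 812 CPM). It lay below both in 52X WT replicate 1 (667 against 926 and 876 CPM) and replicate 2 (830 against 1055 and 1113 CPM). Per base of listed length the mean level was 65.7 CPM for MIRLET7A2, 46.7 for MIRLET7F1, 11.9 for MIRLET7G and 0.0864 for MIRLET7D.

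**Figure D1:**
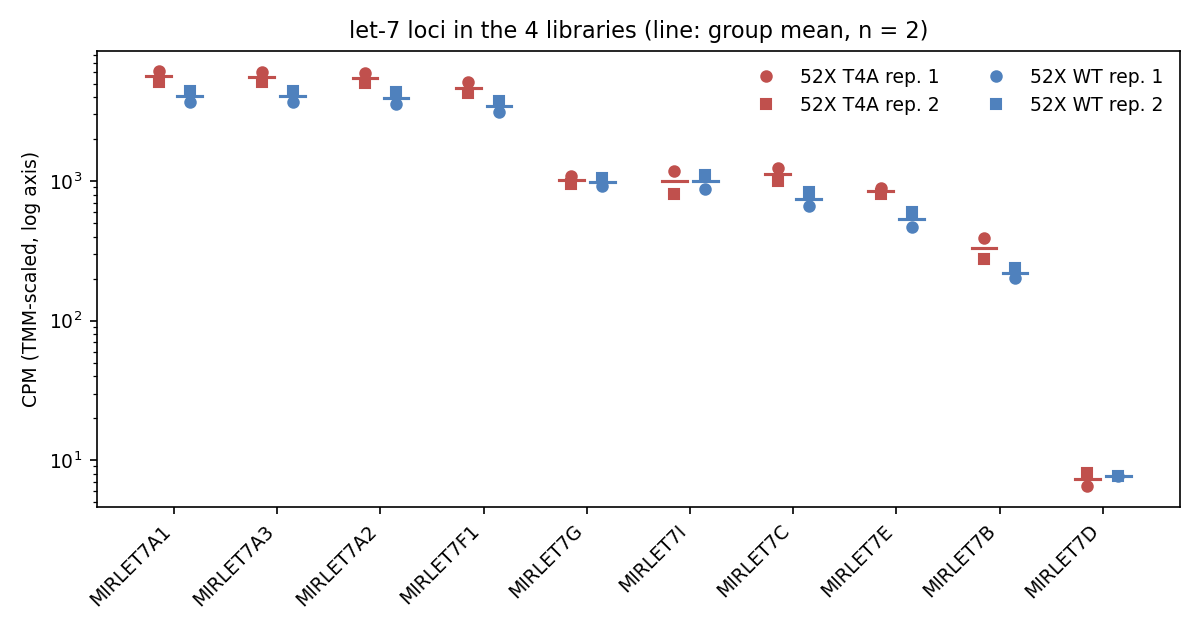
CPM of each let-7 locus (log axis), with 1 point per library and a line at the mean of each group (n = 2). The let-7a loci and MIRLET7F1 lie highest, MIRLET7D lies lowest at 6.51 to 8.14 CPM, and both 52X T4A libraries lie above both 52X WT libraries at 7 loci.

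MIRLET7A1, MIRLET7A2 and MIRLET7A3 give the same mature strand and held near-equal counts. MIRLET7A1 exceeded MIRLET7A3 by 189 and 379 counts in 52X T4A and by 171 and 172 counts in 52X WT, which was 0.196% to 0.318% of the counts at MIRLET7A1. Its excess over MIRLET7A2 was 2.04% to 2.65%. In the same way MIRLET7F1 held 1.17% to 1.67% fewer counts than MIRLET7F2, taken as a share of MIRLET7F2. How reads matching several loci were counted is not given in the sources used here, so the levels and changes of these copies cannot be told apart, and the 3 let-7a loci are 1 measurement rather than 3. The counts also do not separate the 5p from the 3p strand.

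The comparison asked whether let-7 levels differ between cells living on 52X T4A and on 52X WT Pol II. No let-7 locus was called different by edgeR's quasi-likelihood test (Benjamini-Hochberg adjusted p below 0.05 and fold change above 1.5), the adjusted p-values lying between 0.395 and 0.998. Few features of any kind were called, 2 of 1480 tested (0.135%). At an unadjusted p below 0.05, 6 of the 10 loci were higher in 52X T4A and 0 were lower. Of the 1480 features, 59 (3.99%) were higher and 93 were lower. The 6 loci stand for 4 mature miRNAs, since 3 of them are the let-7a copies. Their number depended on single libraries and on the tool, being 0 without 52X T4A replicate 1, 0 without 52X WT replicate 1, 3 without 52X WT replicate 2, 1 with DESeq2, 3 with a filter at a mean count of 10 and 3 of 8 with 1 feature for each mature let-7. Under the other alternatives it was 6 or 7. Both 52X T4A libraries exceeded both 52X WT libraries at 7 loci, against 280 of 1480 tested features (18.9%) and 131 of 621 tested miRNA features (21.1%). These 7 again include the 3 let-7a copies. Both 52X T4A libraries lay below both 52X WT libraries at 0 let-7 loci and at 314 of the 1480 features. The median log2 fold change of the 10 loci was 0.47, beside -0.02 over all tested miRNA features and -0.05 over all tested features. It was 0.24 without 52X WT replicate 1, and 0.46 with 1 feature for each mature let-7. In bulk RNA, fewer cells that hold a miRNA and less of it per cell cannot be told apart.

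The abundant members, let-7a and let-7f, differed little from each other. MIRLET7A1 stood at 6098 and 5139 CPM in 52X T4A and at 3681 and 4448.5 CPM in 52X WT. The groups did not overlap, and the log2 fold change was 0.47 ± 0.20 (SE, n = 2 per group; 95% interval 0.0061 to 0.93; edgeR adjusted p = 0.467). MIRLET7A2 (0.47) and MIRLET7A3 (0.47) gave the same log2 fold change as copies of it. MIRLET7F1, the cluster partner of MIRLET7A1, stood at 5089 and 4263 CPM against 3127 and 3766 CPM. Again both 52X T4A libraries were higher, with a log2 fold change of 0.44 ± 0.21 (SE; 95% interval -0.02 to 0.90; edgeR adjusted p = 0.467).

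The members of middle level that were farthest apart were let-7e, let-7b and let-7c. MIRLET7E, a group I precursor, had 896 and 805 CPM in 52X T4A and 471 and 599 CPM in 52X WT. Its log2 fold change of 0.67 ± 0.23 was the largest of the 10 loci (fold 1.59; 95% interval 0.16 to 1.18; unadjusted p = 0.0159, edgeR adjusted p = 0.395). MIRLET7C, also of group I, had 1237 and 994 CPM against 667 and 830 CPM. The groups were separate at both loci, and for MIRLET7C the log2 fold change was 0.57 ± 0.23 (edgeR adjusted p = 0.421). MIRLET7B had 390 and 275 CPM against 202 and 239 CPM, again without overlap. Its log2 fold change was 0.59 ± 0.26 (95% interval 0.00011 to 1.18; edgeR adjusted p = 0.467).

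In contrast, the groups overlapped for let-7g, let-7i and let-7d. MIRLET7G stood at 1082 and 949 CPM in 52X T4A and at 926 and 1055 CPM in 52X WT, a log2 fold change of 0.04 ± 0.21 (95% interval -0.44 to 0.51). MIRLET7I stood at 1180 and 812 CPM against 876 and 1113 CPM, a log2 fold change of 0.0014 ± 0.25 (95% interval -0.56 to 0.56). The 52X T4A libraries were the highest and the lowest of the 4 for let-7i. MIRLET7D had 103 and 257 counts in 52X T4A and 112 and 146 counts in 52X WT, or 6.51, 8.14, 7.68 and 7.76 CPM. Its log2 fold change was -0.07 ± 0.33 (95% interval -0.82 to 0.68), and it turned to 0.10 with upper quartile factors and to 0.12 with library size alone. Each of these intervals reaches past the 0.47 of MIRLET7A1, so the 3 loci cannot be said to be unchanged.

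**Figure D2:**
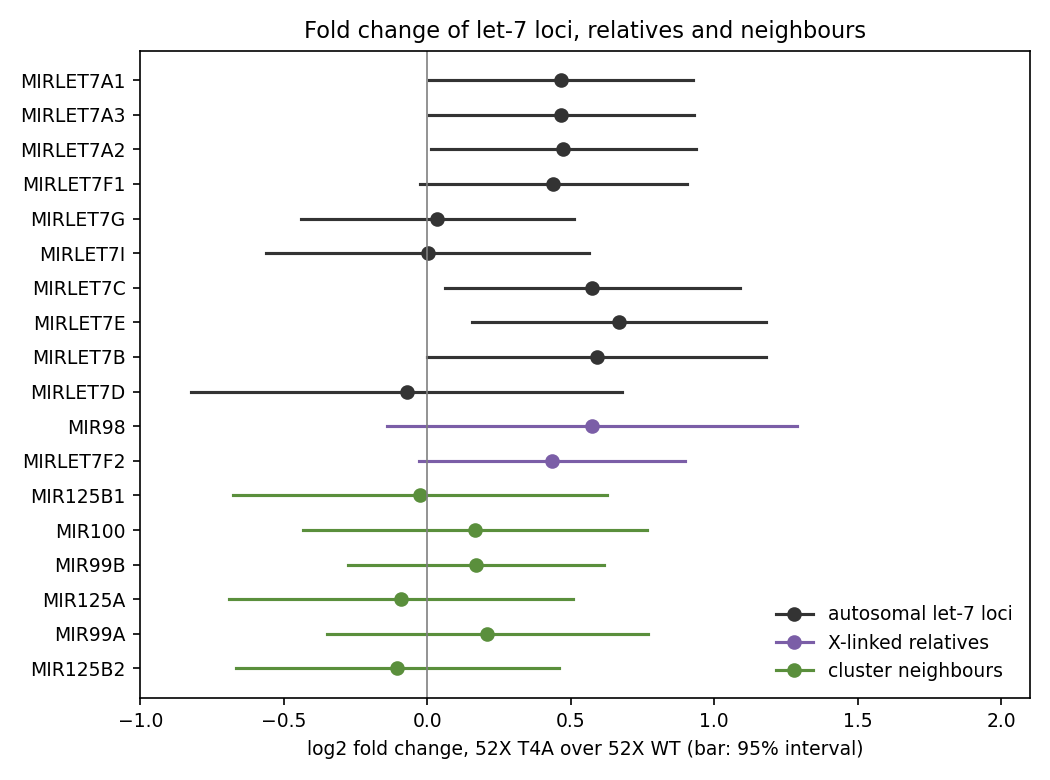
Log2 fold change of 52X T4A over 52X WT with its 95% interval for the 10 autosomal let-7 loci (black), the X-linked relatives (purple) and the tested cluster neighbours (green). MIRLET7E lies farthest right among the let-7 loci at 0.67, MIRLET7G, MIRLET7I and MIRLET7D lie near 0, and the neighbours lie between -0.10 and 0.21.

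The libraries fell in 1 order at all 7 loci with separate groups, with 52X T4A replicate 1 highest, followed by 52X T4A replicate 2, 52X WT replicate 2 and 52X WT replicate 1. These 7 include MIRLET7A1, MIRLET7A2 and MIRLET7A3, which are 1 measurement. At 6 of the 7, all but MIRLET7E, the CPM of 52X T4A replicate 2 lay nearer to that of 52X WT replicate 2 than to that of its own replicate. Neither the order nor this nearness was computed for other features, so neither can be called particular to let-7. Over the members, the mean log2 CPM centred on the 4 libraries was 0.30 and 0.06 in 52X T4A and -0.31 and -0.05 in 52X WT. The median SD of replicates was 0.19 on the log2 scale.

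Of all 1480 tested features, 59 (3.99%) were higher in 52X T4A at an unadjusted p below 0.05 (edgeR). Of the 621 tested miRNA features 38 were, with a median log2 fold change of -0.02 over the 621. By precursor group, all 3 group I loci were higher at an unadjusted p below 0.05, with a median log2 fold change of 0.57. Of the 7 group II loci 3 were, with a median of 0.44. None of either group was without 52X T4A replicate 1 or without 52X WT replicate 1, and 1 locus in all was with DESeq2. MIRLET7A2 of group I gives the same mature strand as MIRLET7A1 and MIRLET7A3 of group II. The precursor groups therefore cannot be compared as separate measurements.

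Together the 10 loci took 2.74% and 2.70% of all counts in 52X T4A and 1.55% and 2.05% in 52X WT. The means were 2.72% ± 0.031 and 1.80% ± 0.351 (SD, n = 2), a difference of 0.922 percentage points. An exact two-sided permutation test gave p = 0.333, the smallest value that 2 against 2 libraries allow. As a share of miRNA counts, which removes the differing miRNA content of the libraries, the family held 3.87% and 3.58% against 2.44% and 2.79%. The order was the same with 1 mean per mature let-7, at 1.56% and 1.52% against 0.894% and 1.18% of all counts.

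Within the family, shares do not depend on how libraries are scaled. They do depend on how reads matching several loci were counted, which is not given in the sources used here. The mean over the let-7a loci presumes that such reads were counted at each locus, as does taking let-7f from MIRLET7F1 alone. With 1 mean per mature let-7, let-7a made up 38.0% and 38.6% of the family in 52X T4A and 36.7% and 36.7% in 52X WT, and let-7f made up 31.9% and 32.3% against 31.5% and 31.3%. The share of let-7g was 6.79% and 7.19% in 52X T4A and 9.34% and 8.78% in 52X WT. That of let-7i was 7.41% and 6.15% against 8.83% and 9.26%. Both were thus lower in both 52X T4A libraries. The share of let-7e was 5.62% and 6.10% against 4.74% and 4.98%, and that of let-7c was 7.76% and 7.53% against 6.73% and 6.91%. Shares of let-7b were 2.45% and 2.08% against 2.04% and 1.99%, a gap far narrower than the difference between the 52X T4A replicates. Smallest was let-7d, with 0.0408% and 0.0616% against 0.0774% and 0.0645%. The groups did not overlap for any of the 8, but shares of 1 total move against each other and are not separate results, and no such share was computed for other miRNA families.

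**Figure D3:**
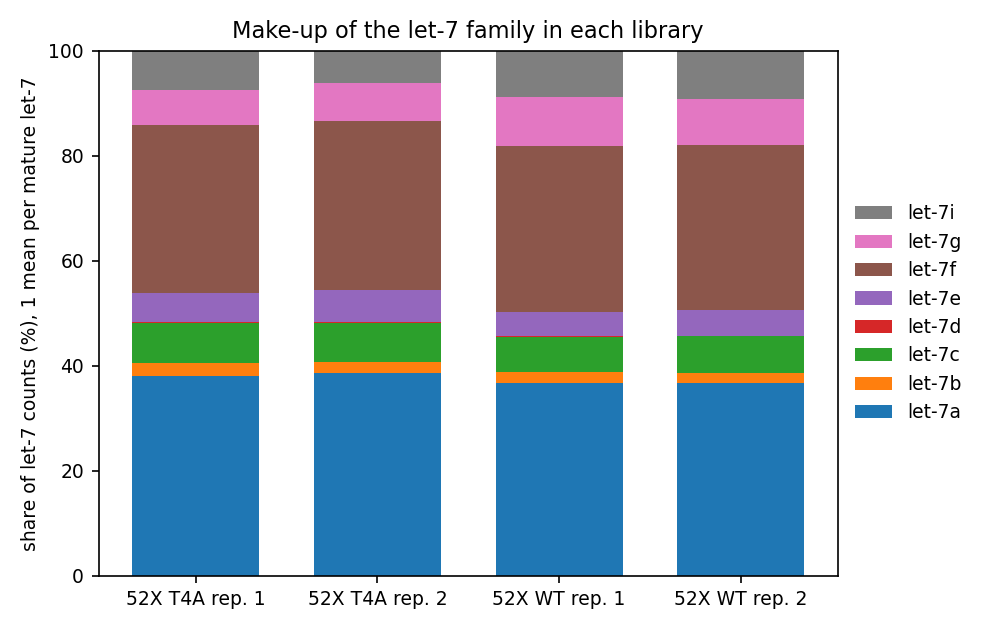
Share of the let-7 counts (percent) taken by each mature let-7 in each library, with 1 mean per mature miRNA. let-7a and let-7f make up most of every bar, and the let-7g and let-7i segments are narrower in the 52X T4A libraries than in the 52X WT libraries.

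Ratios between members, taken from the same counts as the shares, give the same contrast per library. There were 5.59 and 5.37 counts of let-7a for each count of let-7g in 52X T4A and 3.93 and 4.18 in 52X WT. Here let-7a is again the mean of its loci. For let-7e the ratio to let-7g was 0.828 and 0.848 against 0.508 and 0.568. The replicates of a group lay close together in both ratios, far closer than the groups did. That did not hold for let-7b over let-7g, at 0.360 and 0.290 in 52X T4A against 0.218 and 0.227 in 52X WT. There the 52X T4A replicates differed by more than the gap between the groups. For let-7i over let-7g the ratios of 1.09 and 0.855 overlapped those of 0.946 and 1.06. The ratio of let-7f to let-7a varied little, at 0.841 and 0.836 in 52X T4A and 0.858 and 0.854 in 52X WT, although the groups did not overlap. Each of the separate ratios has an exact permutation p of 0.333 at the least.

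In the chr9 cluster, the counts listed at loci that overlap 1 host gene lay far apart. MIRLET7F1 held 0.835 and 0.830 counts for each count at MIRLET7A1 in 52X T4A and 0.849 and 0.847 in 52X WT. MIRLET7D, 2400 bases downstream of MIRLET7F1, held 0.00128 and 0.00191 counts for each count at MIRLET7F1 in 52X T4A and 0.00245 and 0.00206 in 52X WT. In the chr22 pair, MIRLET7B held 0.0640 and 0.0537 counts for each at MIRLET7A3 against 0.0550 and 0.0539, and these overlapped. Since reads of let-7a may come from any of its loci, and reads at MIRLET7F1 from MIRLET7F2, these ratios are not those of the transcripts.

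The 3 group I loci lie in clusters with miRNAs of the miR-100, miR-99 and miR-125 kind, which have other seeds. Of 7 neighbours, 6 were tested, and 0 were called, 0 passed an unadjusted p of 0.05 and 0 had separate groups. Over all 1480 tested features, 2 were called, and 59 were higher and 93 lower at that unadjusted p. The groups were separate upward at 280 features and downward at 314. The log2 fold changes of the 6 tested neighbours ran from -0.10 to 0.21 with a median of 0.07, against 0.57 for the group I let-7 loci. The 0.57 includes MIRLET7A2, which is not a measurement separate from the other let-7a loci. The 95% intervals of MIR99B (up to 0.62), MIR125B1 (0.63), MIR100 (0.77) and MIR99A (0.77) reach past 0.57, so these cannot be said to be unchanged. Those of MIR125A (0.51) and MIR125B2 (0.46) end below it, though that of MIR125A reaches past the 0.47 of MIRLET7A1. The 0.57 is itself an estimate, and the 95% intervals of its loci run from 0.012 (MIRLET7A2) to 1.18 (MIRLET7E). A difference between neighbours and let-7 loci was not tested. MIR4763, beside MIRLET7A3 and MIRLET7B, had 4, 3, 2 and 3 counts and was not tested.

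MIRLET7E lies 104 bases after MIR99B and 389 bases before MIR125A. MIR99B had 94242 and 226912 counts in 52X T4A and 80748 and 115655 counts in 52X WT, a log2 fold change of 0.17 ± 0.20 (95% interval -0.27 to 0.62). For MIRLET7E over MIR99B the ratio of counts was 0.150 and 0.112 in 52X T4A and 0.0851 and 0.0975 in 52X WT. For MIRLET7E over MIR125A it was 6.48 and 4.35 against 2.50 and 3.84. Neither ratio overlapped between the groups, although the 52X T4A replicates differed from each other by more than the gap between the groups.

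MIRLET7C lies 658 bases after MIR99A and 50325 bases before MIR125B2. The ratio of MIRLET7C to MIR99A was 1.01 and 0.544 in 52X T4A and 0.566 and 0.570 in 52X WT, so 1 library stood apart and the groups overlapped. To MIR125B2 it was 8.43 and 5.78 against 3.68 and 5.15. MIRLET7A2, 5635 bases from MIR100 and 46677 bases from MIR125B1, had overlapping ratios to both. The ratio to MIR100 was 7.45 and 3.95 against 4.42 and 4.18. In all 3 clusters 52X T4A replicate 1 had the highest ratio of let-7 to each neighbour, and for MIRLET7A2 the numerator may hold reads of the other let-7a loci.

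**Figure D4:**
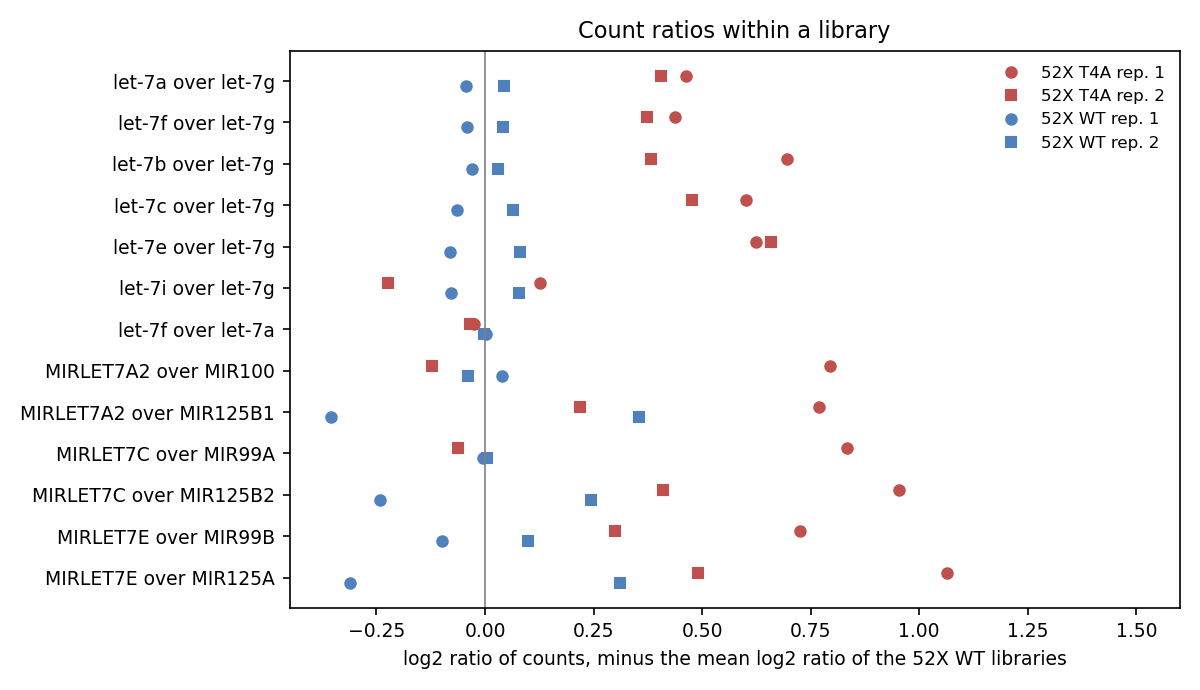
Log2 ratio of counts within each library, with the mean log2 ratio of the 52X WT libraries subtracted, for pairs of mature let-7 miRNAs and for let-7 loci over their cluster neighbours. Ratios of let-7a, let-7f, let-7b, let-7c and let-7e to let-7g lie to the right in both 52X T4A libraries, whereas the ratios to MIR100 and MIR99A do so in 52X T4A replicate 1 alone.

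The X-linked relatives followed the autosomal members. MIRLET7F2 had 81499 and 136332 counts in 52X T4A and 46399 and 71992 counts in 52X WT (log2 fold change 0.43 ± 0.21, edgeR adjusted p = 0.467). It gives the same mature strand as MIRLET7F1, with near-equal counts, so it is not a separate measurement. MIR98, whose mature strand differs from let-7a by G11A and A19U, had 478 and 799 counts against 234 and 399 (log2 fold change 0.57 ± 0.32, edgeR adjusted p = 0.487). Both had separate groups. For likeness of profile, 745 non-member features averaging 100 counts or more were compared with the members' mean centred log2 CPM over the 4 libraries. The closest were MIRLET7F2, MIR378A and MIR548S, with root mean square differences of 0.037, 0.050 and 0.051 on the log2 scale. The closeness of MIRLET7F2 was set in advance, since the member MIRLET7F1 gives the same mature strand. MIR378A had 313738 and 507820 counts against 198377 and 282507, a log2 fold change of 0.33.

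Markers of other cell types were low, and the muscle and blood lists were higher in both 52X T4A libraries, as let-7 was. The muscle miRNAs MIR1-1, MIR1-2, MIR133A1 and MIR133A2 summed to 92.6 and 93.9 CPM without TMM factors in 52X T4A and 27.4 and 32.5 in 52X WT, and their part in the let-7 difference was not tested. None of the 4 was at 0 in any library. MIR1-1, which shares its mature strand with MIR1-2, had a log2 fold change of 1.46 ± 0.30 (edgeR adjusted p = 0.186). MIR122 of liver had 15, 8, 9 and 9 counts, and MIR124-3 of neurons had between 1.42 and 3.77 CPM. The blood markers MIR142, MIR223, MIR451A and MIR144 summed to 24 and 38 counts in 52X T4A (1.48 and 1.39 CPM) and to 9 and 24 counts in 52X WT (0.556 and 1.25 CPM), and their part in the let-7 difference was not tested either. Among the HEK293 markers, MIR92A1 (-0.48), MIR17 (-0.57) and MIR10A (-0.20) had log2 fold changes below 0 and separate groups. Their edgeR adjusted p-values were 0.421, 0.467 and 0.676. MIR196A1 (0.04) had overlapping groups. MIR17 and MIR92A1 lie close together on chr13 and may not be separate examples. Separate groups thus occurred in either direction among abundant miRNAs.

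**Figure D5:**
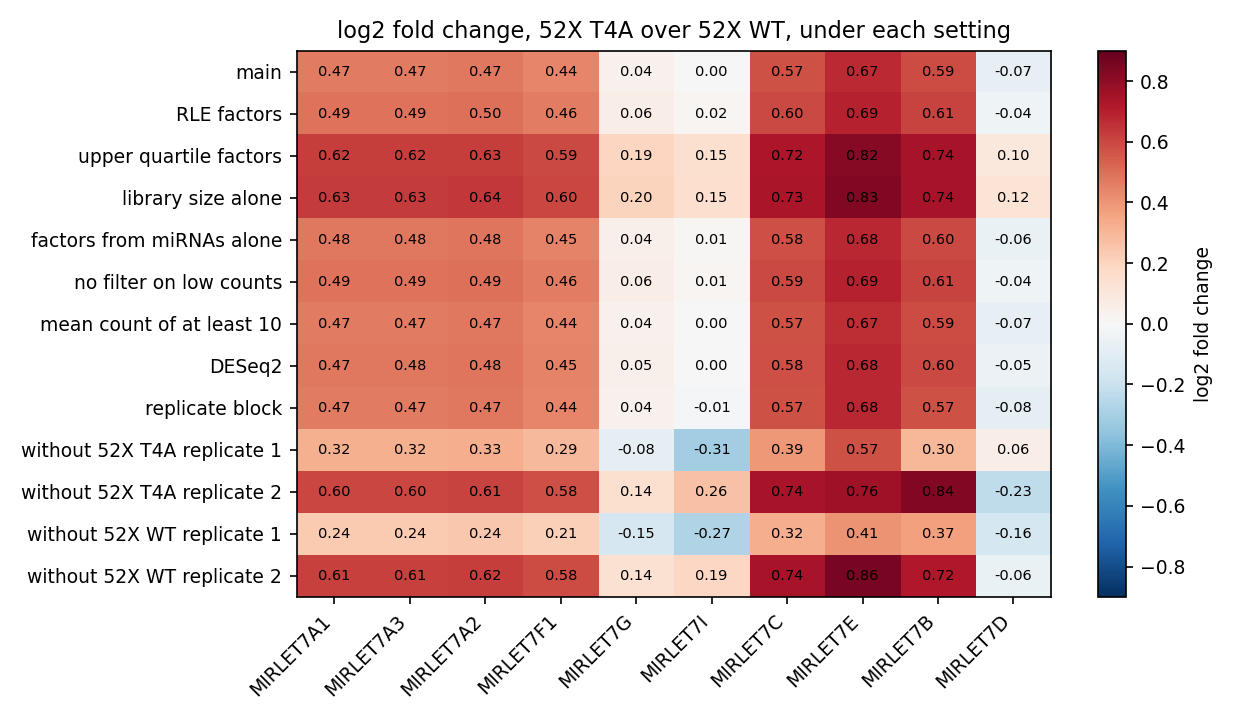
Log2 fold change of each let-7 locus, 52X T4A over 52X WT, under each setting of the processing, with the value written in each cell. The let-7a loci, MIRLET7F1, MIRLET7C, MIRLET7E and MIRLET7B stay above 0 in every row, with their lowest values without 52X WT replicate 1 except for MIRLET7B, whose lowest is without 52X T4A replicate 1.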

How the data were processed

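Small RNA was counted per feature in 4 HEK293T libraries (52X T4A and 52X WT, 2 each). The authors deposited raw read counts for 7062 features, with no normalization. The submitters' processing notes name cutadapt 4.6, Bowtie2 2.3.5.1, featureCounts 1.5.0 and hg38, while settings and the treatment of reads matching several loci are not given in the sources used here. Of the let-7 loci, 8 were named by Ensembl identifier and 2 by an identical RefSeq position. Groups came from the labels. Totals of 16180790 to 27370127 counts limit counting error, and 2 libraries a group limit precision (common biological coefficient of variation 26%).

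All features were fitted with edgeR 4.0.16 in R 4.3.3, using filterByExpr (minimum count 10), TMM factors and the quasi-likelihood F test, with p-values adjusted by the Benjamini-Hochberg method. The SE is the log2 fold change divided by the square root of F. DESeq2 1.42.0, other factors, other filters, a replicate block, 1 feature per mature let-7 and leaving out each library were alternatives. Calls were tested on simulated data, with changes larger than that of any let-7 locus. Whether changes of let-7 size would be called was not tested. Members, gene lists and the rule for named genes (all members, their relatives and neighbours, and the 3 closest profiles) were chosen with earlier results of these data known.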

Additional observations from a re-analysis of the deposited data

How the results depend on the processing

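No let-7 locus was called under any of the alternatives run, with adjusted p-values from 0.064, without 52X WT replicate 2, to 0.999 with DESeq2. Of 130 comparisons of a locus with an alternative, 122 kept their direction and their side of the threshold and 8 reversed, 3 of them with all libraries. The reversals were those of loci near 0: MIRLET7D at 0.10 with upper quartile factors and 0.12 with library size alone, and MIRLET7I at -0.013 with a replicate block. Leaving out 1 library, log2 fold changes ranged from -0.23 to 0.061 for MIRLET7D, from -0.15 to 0.14 for MIRLET7G and from -0.31 to 0.26 for MIRLET7I. The median of the 10 loci ranged from 0.24, without 52X WT replicate 1, to 0.61. Upper quartile factors moved the median of all features from -0.05 to 0.13 and library size alone to 0.14, and the let-7 median moved with it to 0.62 and 0.63. The number of features called was 2 in the fit reported, 9 with library size alone, 0 with factors from miRNAs alone (edgeR, 143 at an unadjusted p below 0.05), 29 with no filter on low counts, 28 with DESeq2 and 18 with a replicate block, and from 4 to 218 without 1 library. The highest was without 52X WT replicate 2. The cause of these differences was not tested. The labels do not say that equal replicate numbers mark a shared batch, the deviations of the replicate 1 libraries correlated at 0.0946 across features, and the block changed no let-7 call. The difference in the let-7 share of all counts was 0.503 points with 1 feature per mature let-7, which counts fewer loci, in place of 0.922.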
